A study of Homo sapiens with 60 samples.

Results

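The effect of a hot-water extract of peony root (Paeoniae Radix) at its high dose was measured against solvent in SW1783, a human astrocytoma cell line. The 2 libraries labelled with that extract at 500 µg/mL and the 3 libraries of vehicle-treated cells were taken, 5 of the 60 libraries of the study. The study sequenced RNA of this line after 24 h with extracts of 6 medicinal materials at 500, 100 and 20 µg/mL, with 3 drugs, or with vehicle. Further groups used here for comparison were peony at 100 µg/mL (medium, 2 libraries), peony at 20 µg/mL (low, 2 libraries) and the other 5 extracts at 500 µg/mL (poria, atractylodes, licorice, ginseng and angelica, 14 libraries). The vehicle was DMSO, at 0.1% according to the labels of the samples but at 2% according to the text of the series, and no solvent content is given for the extracts. The series text adds that extracts of higher toxicity were given below 500 µg/mL, while the sample labels give 500 µg/mL for peony. Nothing says that libraries of a group came from separate cultures, so p-values measure only the spread between libraries within groups, which may be technical. That spread was estimated over all 60 libraries in 22 groups, and is not that of the 5 libraries alone.

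Peony root is known for monoterpene glycosides such as paeoniflorin and for gallotannins. Several cell responses that are read from RNA serve as background here. Hypoxia-inducible factors raise glycolytic enzymes when oxygen is short, and the metal sensor MTF1 raises metallothioneins when free zinc rises. The aryl hydrocarbon receptor (AhR) raises CYP1 enzymes when aromatic ligands bind it, and NRF2 raises enzymes of glutathione and NADPH metabolism in response to electrophiles. Bone morphogenetic proteins (BMP) raise the ID genes, and the co-activator YAP, together with serum response factor (SRF), raises genes of the contractile cytoskeleton.

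One of the 2 peony high libraries stood apart. Peony high replicate 1 had 19.4 M counts, the fewest of all, yet 37765 genes held a count in it, against 22528 to 23832 genes in the other 59 libraries. It held counts in 12654 genes that were at 0 in all 3 vehicle libraries, which made up 0.229% of its counts, whereas peony high replicate 2 (28.3 M counts) had 1150 such genes with 0.00554% of its counts. Vehicle libraries held 27.4 to 29.9 M counts. Gene counts below therefore cover genes averaging 5 CPM (counts scaled to library size) or more over the libraries compared, and most gene lists are also counted against vehicle without replicate 1. The sample codes put the vehicle libraries in a set of their own and the peony libraries in another, although all sample titles read BatchA. Against vehicle the treatment therefore cannot be told apart from the set, whereas the 3 peony doses carry the same set number. Of the other 5 extracts, only angelica carries that number.

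**Figure D1:**
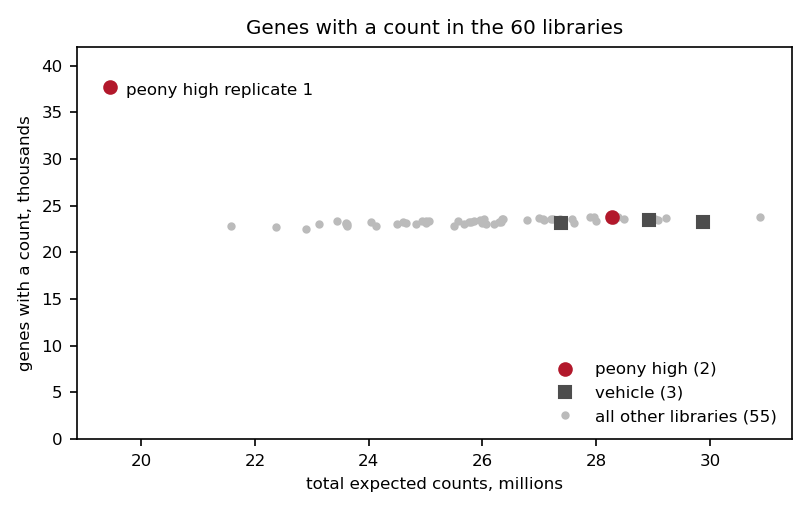
Genes with at least 1 count (y axis) against total expected counts (x axis, M counts) in each of the 60 libraries, with peony high in red and vehicle in dark grey. Peony high replicate 1 stands apart with 37765 genes at the lowest total, 19.4 M counts, while peony high replicate 2, with 23802 genes, lies among the rest.

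Against vehicle, 935 genes were higher and 1805 lower in peony high cells at an adjusted p under 0.05 (edgeR), which is 8.36% and 16.1% of the 11185 genes of at least 5 CPM. These shares are the background for the list counts against vehicle with all libraries. For list counts without peony high replicate 1, the shares without it serve. Most changes were small. A factor of 2 was reached by 11 rises and 12 falls, and the median log2 fold change over all these genes was -0.03. The balance between rises and falls moved with the genes and libraries in the fit. When only genes of at least 5 CPM entered the fit, 1418 were higher (12.7%) and 1259 lower (11.3%), so that 53% of calls were rises instead of 34.1%. Without peony high replicate 1, 534 were higher (4.77%) and 619 lower (5.53%), with 46.3% rises. Leaving out replicate 2 instead, 556 were higher and 2262 lower, with 19.7% rises. Scaling by RLE size factors alone left 33.2% rises. Of the calls with all libraries, 490 of the 935 rises and 610 of the 1805 falls were also called without replicate 1.

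The largest rises were in genes of different kinds, several of them for secreted or cell-surface proteins. NPTX1 (chr17:80467148-80477843, minus strand), which codes for the secreted neuronal pentraxin, had 20.98 and 19.5 CPM in peony high libraries, against 4.95, 3.86 and 4.80 CPM in vehicle libraries. It was the largest rise by the rule used, at a log2 fold change of 2.16 ± 0.11 (SE) and an adjusted p of 3.6e-22 (edgeR). VIPR1 (chr3:42489299-42537573, plus strand), a receptor for vasoactive intestinal peptide, had 11.1 and 10.6 CPM in peony high libraries, against 3.32, 3.54 and 3.34 CPM in vehicle libraries (log2 fold change 1.67 ± 0.15). THBD (chr20:23045633-23049741, minus strand) codes for thrombomodulin, which turns thrombin towards an anticoagulant role. It had 23.6 and 23.9 CPM in peony high libraries, against 7.82, 8.71 and 8.18 CPM in vehicle libraries (log2 fold change 1.53 ± 0.10). IGFBP1 (chr7:45888357-45893668, plus strand), a binding protein of insulin-like growth factors that insulin represses, had 63.2 and 60.1 CPM in peony high libraries, against 21.7, 22.5 and 20.6 CPM in vehicle libraries (log2 fold change 1.51 ± 0.09, adjusted p = 2.7e-19). By the rule that chose the 12 largest rises and falls, both peony high libraries lie beyond all 3 vehicle libraries in each of them. That separation is thus no added support, also where these genes are named again below. Most other genes named below were picked for a small p within their list or after values were seen. Separation of their libraries is therefore no added support either. All 4 genes kept their direction without replicate 1. The other genes among the 12 largest rises were TXNIP, UGT1A7, IL1B, FBXL5, CYP1B1, SERPINB2, L3MBTL1 and NQO1, with log2 fold changes between 0.88 and 1.45. L3MBTL1, a chromatin-binding protein, had 8.68 and 6.17 CPM in peony high libraries, against 3.87, 3.26 and 4.43 CPM in vehicle libraries, so that its peony libraries differed by more than those of the 4 genes above. UGT1A7 shares exons with its neighbours in the UGT1A locus, which makes its counts uncertain. NPTX1, VIPR1, L3MBTL1 and IL1B were under 5 CPM in every vehicle library. They passed the minimum mean of 5 CPM only through their peony high libraries. Genes at such vehicle levels that did not rise were left out, so the minimum shaped this ranking.

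**Figure D2:**
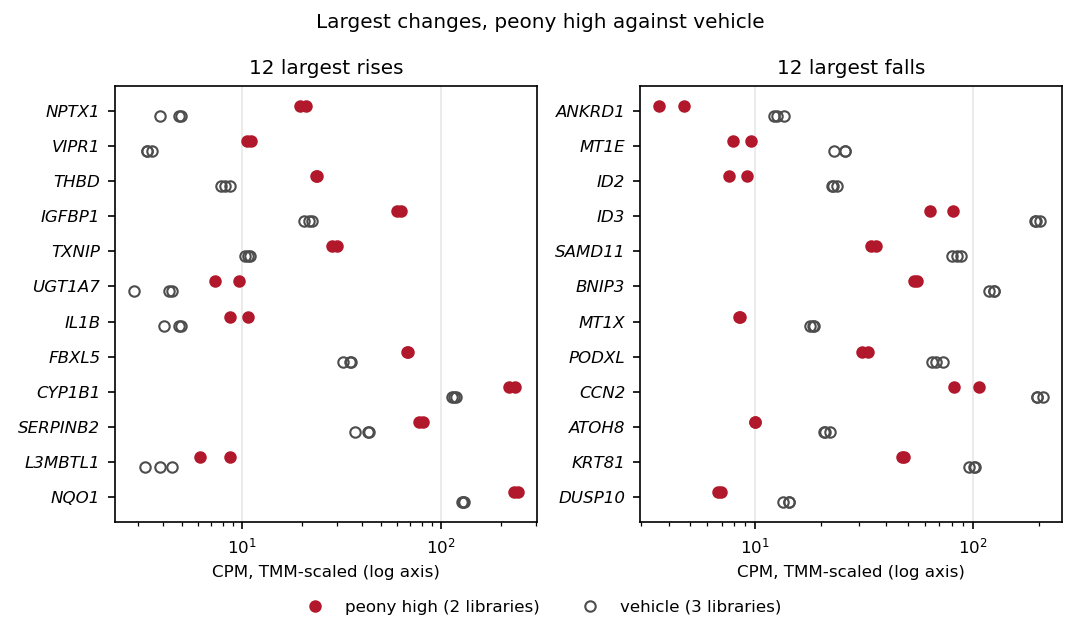
TMM-scaled CPM (log axis) of the 12 genes with the largest rises (left panel) and the 12 with the largest falls (right panel), with each peony high library as a filled point and each vehicle library as an open point below it. By the rule that chose these genes, both peony high libraries lie on the same side of all 3 vehicle libraries in each of them.

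The largest falls included genes of several of the lists described below. ANKRD1 (chr10:90912096-90921276, minus strand), an ankyrin-repeat protein and a target of YAP, had 3.62 and 4.68 CPM in peony high libraries, against 13.6, 12.6 and 12.2 CPM in vehicle libraries (log2 fold change -1.61 ± 0.17, adjusted p = 1.7e-09, edgeR). The metallothioneins MT1E and MT1X, the helix-loop-helix inhibitors ID2 and ID3, the mitophagy receptor BNIP3 and the matricellular protein CCN2 were also among the 12 largest falls and are described with their groups below. SAMD11 (chr1:923928-944581, plus strand), which codes for a sterile alpha motif protein, had 35.7 and 33.8 CPM in peony high libraries, against 79.9, 84.1 and 88.03 CPM in vehicle libraries (log2 fold change -1.27 ± 0.07). PODXL, a sialomucin of the cell surface, had 30.8 and 32.9 CPM in peony high libraries, against 67.6, 64.4 and 72.8 CPM in vehicle libraries (log2 fold change -1.09 ± 0.07). DUSP10, a phosphatase of stress-activated kinases, had 6.71 and 6.97 CPM in peony high libraries, against 14.2, 13.5 and 14.3 CPM in vehicle libraries (log2 fold change -1.03 ± 0.09). By the same rule, peony and vehicle libraries were apart in each of them. ATOH8 and KRT81 complete the 12, and KRT81 has close copies among the hair keratins, which makes its counts uncertain.

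Genes of hypoxia and glycolysis fell nearly as one. Of 26 members of that list with at least 5 CPM, 24 fell and 1 rose, where 16.1% of all genes fell and 8.36% rose. Their median log2 fold change was -0.38, against -0.03 over all genes. Without peony high replicate 1, 21 fell and 1 rose. BNIP3 (chr10:131966455-131982013, minus strand) had 53.6 and 55.3 CPM in peony high libraries, against 124, 125 and 118 CPM in vehicle libraries, a log2 fold change of -1.17 ± 0.06 with an adjusted p of 1.1e-20 (edgeR). PDK1, the kinase that keeps pyruvate out of the mitochondrial cycle, had 19.6 and 19.04 CPM in peony high libraries, against 34.8, 33.1 and 34.03 CPM in vehicle libraries (log2 fold change -0.82 ± 0.07). P4HA1, a subunit of collagen prolyl hydroxylase, had 148 and 154 CPM in peony high libraries, against 233, 237 and 231 CPM in vehicle libraries (log2 fold change -0.63 ± 0.04). In these genes the groups were well apart and the 2 peony libraries close together. They were picked for their small p, so this is no added support. CA9, the tumour-associated carbonic anhydrase, had 21.5 and 21.3 CPM in peony high libraries, against 34.4, 36.6 and 36.6 CPM in vehicle libraries (log2 fold change -0.75 ± 0.08), and ENO2, the neuronal enolase, had 32.4 and 35.5 CPM in peony high libraries, against 54.3, 55.3 and 54.7 CPM in vehicle libraries (log2 fold change -0.69 ± 0.06).

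Abundant enzymes of glycolysis were among the falls. LDHA, lactate dehydrogenase, had 1306 and 1386 CPM in peony high libraries, against 1882, 1823 and 1787 CPM in vehicle libraries (log2 fold change -0.44 ± 0.04). PGK1, phosphoglycerate kinase, had 671 and 683 CPM in peony high libraries, against 926, 951 and 944 CPM in vehicle libraries (log2 fold change -0.47 ± 0.05). GAPDH, often used as a reference gene, had 3657 and 3818 CPM in peony high libraries, against 4906, 4742 and 4722 CPM in vehicle libraries (log2 fold change -0.36 ± 0.06). All 3 fell, and no peony library reached a vehicle library. VEGFA, the angiogenic growth factor, was the 1 member that rose, with 415 and 442 CPM in peony high libraries, against 356, 349.7 and 347 CPM in vehicle libraries (log2 fold change 0.29 ± 0.05, adjusted p = 3.4e-06, edgeR). ADM, which codes for adrenomedullin, did not pass the test (log2 fold change -0.18 ± 0.11).

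The list had the same shape against the low dose of peony, a comparison with no vehicle library. There 20 of the 26 members were lower in peony high and 1, VEGFA, was higher, where 4.68% of 11249 genes were lower and 2.34% higher. Without peony high replicate 1, 14 were lower and 1 higher. BNIP3 had 53.6 and 55.3 CPM at the high dose against 118 and 116 CPM at the low dose (log2 fold change -1.10 ± 0.07). At the medium dose 1 member fell and 1 rose against vehicle, where 1.52% of all genes fell and 2.09% rose. At the low dose 2 fell and 1 rose, where 3.89% of all genes fell and 3.59% rose. The comparisons with vehicle share its 3 libraries. The shares in this paragraph are also the background for later list counts of the same comparisons.

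Promoter windows of 3 of these genes are shown because the list fell together. Each is the 250 bases before the transcription start in RefSeq (GRCh38.p14), 5′ to 3′ on the gene's strand, with capitals on the hypoxia response core ACGTG on either strand. BNIP3 is on the minus strand (chr10:131981924-131982173), CA9 on the plus strand (chr9:35673678-35673927) and ENO2 on the plus strand (chr12:6914330-6914579).
BNIP3: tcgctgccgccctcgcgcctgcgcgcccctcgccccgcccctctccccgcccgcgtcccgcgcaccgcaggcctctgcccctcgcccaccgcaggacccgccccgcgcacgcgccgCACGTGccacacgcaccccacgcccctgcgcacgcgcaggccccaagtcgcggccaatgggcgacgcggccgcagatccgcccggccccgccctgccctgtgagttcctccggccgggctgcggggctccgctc
CA9: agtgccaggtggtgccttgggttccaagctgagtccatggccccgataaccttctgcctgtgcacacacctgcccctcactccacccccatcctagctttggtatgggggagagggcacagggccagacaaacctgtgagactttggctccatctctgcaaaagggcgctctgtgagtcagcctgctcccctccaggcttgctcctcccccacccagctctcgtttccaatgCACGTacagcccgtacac
ENO2: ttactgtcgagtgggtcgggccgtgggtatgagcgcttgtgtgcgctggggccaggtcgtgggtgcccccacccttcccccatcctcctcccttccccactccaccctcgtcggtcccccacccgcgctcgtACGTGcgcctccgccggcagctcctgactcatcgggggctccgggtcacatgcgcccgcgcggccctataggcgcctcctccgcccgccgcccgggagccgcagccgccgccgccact
The BNIP3 window holds 2 matches, 1 on each strand, which overlap in a palindrome and form 1 run of capitals. The windows of CA9 and ENO2 hold 1 match each. Of all 35116 windows in the table, 18.5% held the core, and so did 19 of the 40 windows of the 24 list members with an entry. A match describes letters and not binding.

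**Figure D3:**
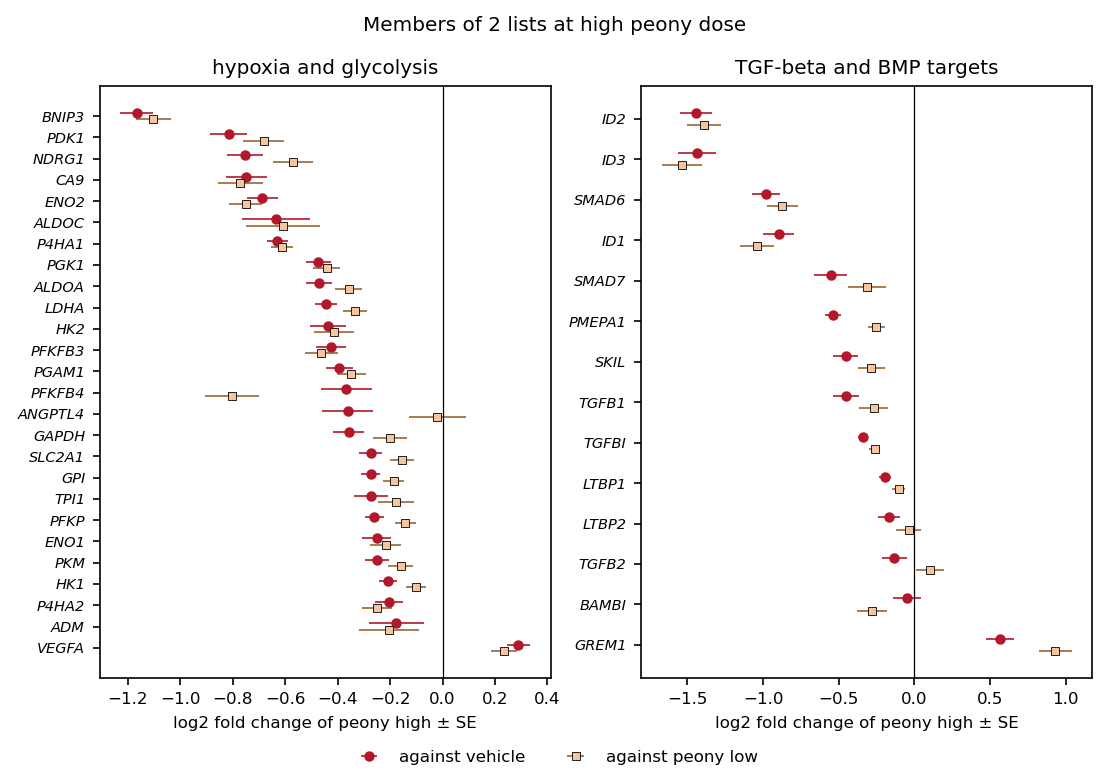
Log2 fold change of peony high (x axis, bars show the SE) for members of at least 5 CPM in the hypoxia and glycolysis list (left panel) and for 14 of the 15 in the TGF-beta and BMP list (right panel), with red circles against vehicle and light squares against peony low. VEGFA is the only hypoxia member above 0, at 0.29 against vehicle, and GREM1 is the only TGF-beta or BMP member above 0 against vehicle, at 0.57.

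Metallothioneins, the small zinc-binding proteins, fell together with a zinc exporter. Of 6 members of the zinc list with at least 5 CPM, 4 fell (MT1E, MT1X, MT2A and the exporter SLC30A1) and 1, the importer SLC39A10, rose, where 16.1% of all genes fell and 8.36% rose. The median log2 fold change was -0.56, and the counts without peony high replicate 1 were also 4 and 1. MT1E (chr16:56625475-56627112, plus strand) had 7.91 and 9.54 CPM in peony high libraries, against 25.7, 25.7 and 23.04 CPM in vehicle libraries (log2 fold change -1.50 ± 0.15, adjusted p = 2.7e-10, edgeR). MT1X had 8.39 and 8.53 CPM in peony high libraries, against 18.6, 17.9 and 18.5 CPM in vehicle libraries (log2 fold change -1.11 ± 0.11). MT2A had 261 and 285 CPM in peony high libraries, against 523, 460.4 and 451 CPM in vehicle libraries (log2 fold change -0.81 ± 0.13). All 3 metallothioneins were lower in both peony libraries than in any vehicle library. Low levels were not particular to peony. At high dose MT1E averaged 11.2 CPM in poria, 12.4 CPM in ginseng and 11.6 CPM in angelica, but 32.8 CPM in atractylodes and 50.4 CPM in licorice. MT1X averaged 10.4, 11.7 and 10.4 CPM in poria, ginseng and angelica, but 21.3 CPM in atractylodes and 34.1 CPM in licorice. SLC39A10 had 53.8 and 51.5 CPM in peony high libraries, against 42.8, 42.1 and 42.4 CPM in vehicle libraries (log2 fold change 0.31 ± 0.06). MTF1, the zinc sensor itself, did not pass the test (log2 fold change -0.02 ± 0.08). MT1 genes are near-identical copies, so that reads can be split between them and their levels are uncertain. Against peony low, 3 of the 6 were lower and 1 higher, and MT2A missed the threshold (log2 fold change -0.44 ± 0.14, adjusted p = 0.058, edgeR).

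Windows of MT1X (chr16:56682220-56682469, plus strand) and MT2A (chr16:56608334-56608583, plus strand) from the same table are shown because metallothionein promoters are the textbook case of repeated metal response elements. Capitals mark the core TGCACNC or TGCGCNC on either strand.
MT1X: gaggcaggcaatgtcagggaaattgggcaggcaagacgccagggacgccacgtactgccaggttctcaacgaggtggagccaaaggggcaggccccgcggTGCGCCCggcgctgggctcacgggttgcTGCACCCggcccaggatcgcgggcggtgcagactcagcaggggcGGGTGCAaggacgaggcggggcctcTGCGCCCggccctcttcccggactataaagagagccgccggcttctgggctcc
MT2A: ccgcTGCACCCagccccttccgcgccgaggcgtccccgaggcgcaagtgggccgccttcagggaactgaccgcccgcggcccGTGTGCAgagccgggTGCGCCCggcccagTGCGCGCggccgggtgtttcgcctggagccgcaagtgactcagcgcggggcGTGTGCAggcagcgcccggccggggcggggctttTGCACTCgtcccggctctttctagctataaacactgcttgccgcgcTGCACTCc
MT1X holds 4 matches, 3 of them on its own strand, and MT2A holds 7, 5 of them on its own strand. A match was present in 24.8% of all windows and in 3 of the 6 windows of the list members with an entry.

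Targets of BMP and TGF-beta signalling fell as well. Of 15 members with at least 5 CPM, 11 fell and 1 rose, where 16.1% of all genes fell and 8.36% rose. The median log2 fold change of the members was -0.45. When peony high replicate 1 was left out, 10 fell and 1 rose. The ID genes are BMP targets that block helix-loop-helix factors. ID3 (chr1:23557918-23559794, minus strand) had 63.7 and 81.1 CPM in peony high libraries, against 193, 203 and 194 CPM in vehicle libraries (log2 fold change -1.43 ± 0.12, adjusted p = 1.7e-11, edgeR). ID2 (chr2:8678845-8684453, plus strand) had 7.57 and 9.15 CPM in peony high libraries, against 23.6, 22.6 and 22.8 CPM in vehicle libraries (log2 fold change -1.44 ± 0.10). ID1 had 116 and 153 CPM in peony high libraries, against 251, 251 and 253 CPM in vehicle libraries (log2 fold change -0.90 ± 0.10). The 2 peony libraries differed more from each other in ID1 and ID3 than the vehicle libraries did, but lay below all of them. SMAD6, an inhibitory SMAD that BMP induces, had 7.62 and 7.39 CPM in peony high libraries, against 13.9, 15.3 and 15.2 CPM in vehicle libraries (log2 fold change -0.98 ± 0.09). GREM1, a secreted BMP antagonist, was the rise, with 27.9 and 27.3 CPM in peony high libraries, against 17.02, 19.2 and 19.7 CPM in vehicle libraries (log2 fold change 0.57 ± 0.09, adjusted p = 1.0e-05, edgeR).

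The fall was graded with dose in part of this list. At the medium dose 7 of the 15 were lower than vehicle and at the low dose 3, where 1.52% and 3.89% of all genes were. ID3 had 209 and 214 CPM at the low, 112 and 123 CPM at the medium and 63.7 and 81.1 CPM at the high dose. Against peony low, 8 of the 15 were lower in peony high and 1 higher, and 5 and 1 without peony high replicate 1. ATOH8, a helix-loop-helix factor outside the list, had 9.99 and 9.92 CPM in peony high libraries, against 20.6, 20.9 and 21.95 CPM in vehicle libraries (log2 fold change -1.09 ± 0.09).

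Targets of YAP and SRF fell in 15 of 19 members and rose in 1, AJUBA, where 16.1% of all genes fell and 8.36% rose. The median log2 fold change of the members was -0.33. Without peony high replicate 1, 10 fell and 1 rose. CCN2 (chr6:131948176-131951373, minus strand), connective tissue growth factor, had 81.3 and 106 CPM in peony high libraries, against 197, 209 and 197 CPM in vehicle libraries (log2 fold change -1.09 ± 0.13, adjusted p = 3.5e-08, edgeR). ACTA2, smooth muscle actin, had 85.4 and 96.9 CPM in peony high libraries, against 145, 145 and 139 CPM in vehicle libraries (log2 fold change -0.65 ± 0.07). TPM1, a tropomyosin, had 589 and 602 CPM in peony high libraries, against 861, 872 and 854 CPM in vehicle libraries (log2 fold change -0.53 ± 0.05). The peony libraries lay below all vehicle libraries in these genes, and the ANKRD1 values above belong to the same list. CCN1, another YAP target, had 328 and 363 CPM in peony high libraries, against 381, 369.9 and 372 CPM in vehicle libraries and did not pass the test (log2 fold change -0.12 ± 0.14). CCN2 was already lower at the smaller doses, with 118 and 139 CPM at the low and 119 and 149 CPM at the medium dose. Against peony low, 6 of the 19 were lower in peony high, and 3 without peony high replicate 1.

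Windows of CCN2 (chr6:131951373-131951622, minus strand) and ANKRD1 (chr10:90921088-90921337, minus strand) are shown because YAP acts through TEAD factors, whose sites these genes are known for. Capitals mark the core CATTCC on either strand.
CCN2: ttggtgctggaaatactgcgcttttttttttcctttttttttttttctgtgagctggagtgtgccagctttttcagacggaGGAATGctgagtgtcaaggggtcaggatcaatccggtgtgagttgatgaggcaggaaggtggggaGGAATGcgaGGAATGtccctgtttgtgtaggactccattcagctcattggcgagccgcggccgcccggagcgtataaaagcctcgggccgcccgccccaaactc
ANKRD1: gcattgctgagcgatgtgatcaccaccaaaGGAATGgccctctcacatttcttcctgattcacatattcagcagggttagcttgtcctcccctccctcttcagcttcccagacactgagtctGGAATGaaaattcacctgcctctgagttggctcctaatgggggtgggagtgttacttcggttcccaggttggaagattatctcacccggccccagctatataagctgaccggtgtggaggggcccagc
CCN2 holds 3 matches and ANKRD1 holds 2, all on the other strand, where the gene's own strand reads GGAATG. The core was present in 11.9% of all windows and in 6 of the 19 windows of the 14 list members with an entry.

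AhR targets rose. Of 5 members with at least 5 CPM, 4 rose (CYP1B1, AHRR, TIPARP and NQO1), where 8.36% of all genes did, and the receptor AHR itself did not pass the test (log2 fold change -0.01 ± 0.08). As many, 4, were higher without peony high replicate 1, and 4 were higher than at the low dose. CYP1B1 (chr2:38066973-38109902, minus strand), a cytochrome P450 that oxidises aromatic hydrocarbons and oestrogens, had 220.1 and 235 CPM in peony high libraries, against 119, 116 and 114 CPM in vehicle libraries (log2 fold change 0.96 ± 0.06, adjusted p = 5.4e-18, edgeR). AHRR, the repressor of the receptor, had 67.1 and 66.4 CPM in peony high libraries, against 42.4, 44.01 and 44.8 CPM in vehicle libraries (log2 fold change 0.61 ± 0.10). TIPARP, a feedback inhibitor, had 82.2 and 92.3 CPM in peony high libraries, against 58.5, 58.4 and 57.6 CPM in vehicle libraries (log2 fold change 0.59 ± 0.08). In none of them did the groups overlap, which is no added support, since they were picked for their small p. CYP1A1 and ALDH3A1 are below the minimum of 5 CPM, so they are outside the counts. CYP1A1 had 3.43 and 2.60 CPM in peony high libraries, against 0.899, 1.17 and 0.713 CPM in vehicle libraries, and ALDH3A1 had 1.59 and 1.91 CPM in peony high libraries, against 0.242, 0.212 and 0.263 CPM in vehicle libraries.

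NRF2 targets rose in 14 of 22 members and fell in 1, where 8.36% of all genes rose and 16.1% fell. The median log2 fold change of the members was 0.21. When peony high replicate 1 was left out, 16 rose and 1 fell. NQO1 (chr16:69706996-69726951, minus strand), a quinone reductase on both the AhR and the NRF2 list, had 232 and 243 CPM in peony high libraries, against 131, 129 and 128 CPM in vehicle libraries (log2 fold change 0.88 ± 0.06, adjusted p = 5.2e-18, edgeR). SLC7A11, which imports cystine for glutathione synthesis, had 154 and 147 CPM in peony high libraries, against 94.7, 93.8 and 98.4 CPM in vehicle libraries (log2 fold change 0.66 ± 0.07). AKR1C1, an aldo-keto reductase whose close neighbours make its counts uncertain, had 36.3 and 35.4 CPM in peony high libraries, against 20.6, 21.9 and 21.2 CPM in vehicle libraries (log2 fold change 0.75 ± 0.07). All 3 were higher in both peony libraries than in any vehicle library. The enzyme of glutathione synthesis moved little, since its subunit GCLM rose at a log2 fold change of 0.20 ± 0.05 and GCLC did not pass the test at 0.12 ± 0.05. HMOX1, haem oxygenase, was the fall, with 59.1 and 66.9 CPM in peony high libraries, against 84.96, 83.9 and 83.5 CPM in vehicle libraries (log2 fold change -0.41 ± 0.08, adjusted p = 1.0e-04, edgeR). Against peony low, 10 of the 22 were higher in peony high, and HMOX1 did not pass the test (log2 fold change -0.26 ± 0.09, adjusted p = 0.056, edgeR).

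Of 12 genes of iron handling, 1 rose (FTL) and 2 fell (HMOX1 and the importer SLC39A14), near the shares of all genes. FTL, the ferritin light chain, had 1513 and 1799.6 CPM in peony high libraries, against 1172, 1049 and 1159 CPM in vehicle libraries (log2 fold change 0.56 ± 0.10), with the peony libraries further apart than the vehicle ones. TFRC, the transferrin receptor, did not pass the test (log2 fold change -0.08 ± 0.06). With only genes of at least 5 CPM in the fit, 5 of the 12 rose and 2 fell, and 2 rose and 2 fell without peony high replicate 1. FBXL5 (chr4:15604539-15681679, minus strand), outside the list, is the iron-sensing subunit of the ubiquitin ligase that degrades iron regulatory protein. It had 67.4 and 67.8 CPM in peony high libraries, against 35.1, 32.2 and 34.9 CPM in vehicle libraries (log2 fold change 0.99 ± 0.06, adjusted p = 8.0e-20, edgeR), against 34.4 and 35.8 CPM at the low and 39.6 and 38.5 CPM at the medium dose.

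Selenoproteins are a list added after values were seen. Of 17 members with at least 5 CPM, 5 rose and 3 fell, and 4 rose and 2 fell without peony high replicate 1, where 8.36% of all genes rose and 16.1% fell with all libraries, so that the share of falls was near that of all genes. GPX1, the cytosolic glutathione peroxidase, had 119 and 131 CPM in peony high libraries, against 215, 216 and 212 CPM in vehicle libraries (log2 fold change -0.78 ± 0.07, adjusted p = 6.4e-12, edgeR). SELENOW, a small redox selenoprotein, had 35.1 and 39.05 CPM in peony high libraries, against 65.5, 64.8 and 61.2 CPM in vehicle libraries (log2 fold change -0.78 ± 0.08). GPX1 had 215 and 208 CPM at the low and 163 and 162 CPM at the medium dose, so the medium dose lay between. DIO2, the deiodinase that activates thyroid hormone, had 72.7 and 70.7 CPM in peony high libraries, against 45.2, 42.2 and 44.02 CPM in vehicle libraries (log2 fold change 0.71 ± 0.07). TXNRD1, thioredoxin reductase, had 391 and 378 CPM in peony high libraries, against 287, 303 and 297 CPM in vehicle libraries (log2 fold change 0.38 ± 0.05).

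TXNIP (chr1:145992435-145996600, minus strand), the thioredoxin-interacting brake on glucose uptake, had 30.1 and 28.3 CPM in peony high libraries, against 10.97, 10.7 and 10.3 CPM in vehicle libraries (log2 fold change 1.45 ± 0.09, adjusted p = 1.1e-17, edgeR). Its relative ARRDC4, like TXNIP a target of the glucose sensor MondoA, had 9.89 and 9.57 CPM in peony high libraries, against 6.37, 7.01 and 6.64 CPM in vehicle libraries (log2 fold change 0.54 ± 0.11). Both were higher in each peony high library than in any vehicle library. Of 7 genes on the MondoA list, 3 rose and 1 fell, and 3 rose without peony high replicate 1. TXNIP had 9.46 and 9.10 CPM at the low and 11.1 and 9.22 CPM at the medium dose, near the vehicle libraries. FOXO targets, among them IGFBP1 and TXNIP, rose in 5 of 19 members and fell in 2, and in 4 and 1 without peony high replicate 1. FBXO32, the ubiquitin ligase atrogin-1, had 137 and 143 CPM in peony high libraries, against 101, 107 and 97.6 CPM in vehicle libraries (log2 fold change 0.46 ± 0.05) and 137 and 130.2 CPM at the medium dose.

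Genes induced by endoplasmic reticulum (ER) stress were lower, in a comparison where 16.1% of all genes fell and 8.36% rose. Of 20 members, 15 fell, at a median log2 fold change of -0.25, and 12 fell without peony high replicate 1. HSPA5, the chaperone BiP, had 2754 and 2782 CPM in peony high libraries, against 3404, 3560.1 and 3640.5 CPM in vehicle libraries (log2 fold change -0.35 ± 0.06). PDIA4, a disulfide isomerase, had 591 and 609 CPM in peony high libraries, against 736, 748 and 766 CPM in vehicle libraries (log2 fold change -0.32 ± 0.04). These are small steps. The groups did not overlap, but these genes were picked for their small p, so this is no added support. Against peony low, 11 of the 20 were lower in peony high, and 7 without peony high replicate 1. Targets of ATF4, the factor of the amino acid response, fell in 16 of 21 and rose in 1, SLC7A11. Without peony high replicate 1, 10 fell and 1 rose. DDIT4, an inhibitor of mTORC1 that hypoxia also induces, had 30.7 and 36.00 CPM in peony high libraries, against 51.1, 60.5 and 57.5 CPM in vehicle libraries (log2 fold change -0.75 ± 0.11). PSAT1, of serine synthesis, had 52.5 and 51.9 CPM in peony high libraries, against 66.9, 68.6 and 70.7 CPM in vehicle libraries (log2 fold change -0.40 ± 0.06). Cytosolic heat shock genes fell in 3 of 17 and rose in 1, near the shares of all genes, and in 1 and 0 without peony high replicate 1. HSPA1A, the inducible chaperone of which HSPA1B is a near-identical copy, had 144 and 155 CPM in peony high libraries, against 149, 152 and 159.6 CPM in vehicle libraries, and DNAJB1, its co-chaperone, had 146 and 160.4 CPM in peony high libraries, against 163, 161 and 161 CPM in vehicle libraries. Neither passed the test, at log2 fold changes of -0.04 ± 0.07 and -0.08 ± 0.05.

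**Figure D4:**
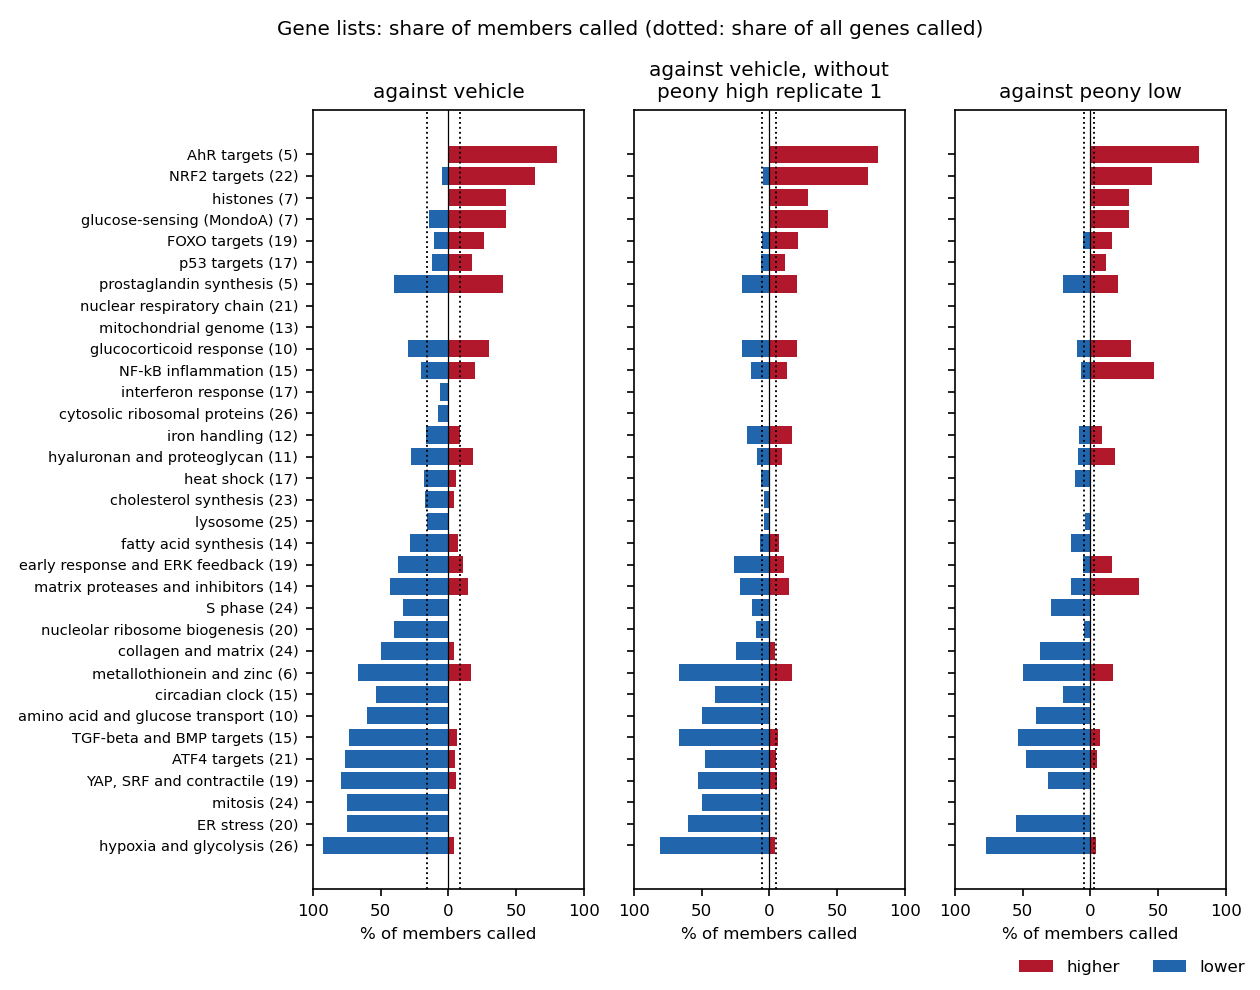
Percent of members of at least 5 CPM called higher (red, right of 0) or lower (blue, left of 0) in 33 gene lists for peony high against vehicle (left panel), the same without peony high replicate 1 (middle panel) and against peony low (right panel), with list sizes in brackets and dotted lines at the percent of all genes called. Hypoxia and glycolysis has the longest blue bar in each panel, with 24, 21 and 20 of 26 members, AhR targets have the longest red bar, with 4 of 5, and mitosis has no bar against peony low.

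Inflammatory genes of the NF-kB list were mixed against vehicle, with 3 of 15 higher and 3 lower, and 2 higher and 2 lower without peony high replicate 1. IL1B, interleukin-1 beta, had 8.68 and 10.7 CPM in peony high libraries, against 4.95, 4.85 and 4.05 CPM in vehicle libraries (log2 fold change 1.08 ± 0.12, adjusted p = 1.9e-09, edgeR). LIF, a cytokine of the interleukin-6 family, had 76.3 and 80.6 CPM in peony high libraries, against 57.98, 56.4 and 52.8 CPM in vehicle libraries (log2 fold change 0.49 ± 0.09). IL11, of the same family, fell, with 70.6 and 68.5 CPM in peony high libraries, against 96.2, 107 and 105 CPM in vehicle libraries (log2 fold change -0.56 ± 0.08). Groups were apart in all 3 genes. Against the low dose the list was less mixed, with 7 of 15 higher in peony high and 1 lower, while 6 of the 15 were lower in peony low than in vehicle. LIF had 34.5 and 36.9 CPM at the low, 56.5 and 55.7 CPM at the medium and 76.3 and 80.6 CPM at the high dose. CXCL8, the neutrophil chemokine, had 6.08 and 5.48 CPM at the low, 9.29 and 8.71 CPM at the medium and 14.96 and 14.1 CPM at the high dose, against 10.6, 12.6 and 9.91 CPM in vehicle libraries. Its rise at the high dose over vehicle (log2 fold change 0.39 ± 0.11) was not called without peony high replicate 1 (adjusted p = 0.10, edgeR), and its log2 fold change against the low dose was 1.32 ± 0.14. SERPINB2, a plasminogen activator inhibitor of inflamed cells, had 80.9 and 77.9 CPM at the high and 33.95 and 30.8 CPM at the low dose, against 43.3, 43.1 and 36.9 CPM in vehicle libraries. Interferon response genes stayed near background, with 1 of 17 lower and none called by edgeR without peony high replicate 1, where 0 had an unadjusted p under 0.05.

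Mitotic genes fell in 18 of 24 members against vehicle, at a median log2 fold change of -0.26, and in 12 without peony high replicate 1. PLK1, a mitotic kinase, had 125 and 138 CPM in peony high libraries, against 179.6, 167 and 172 CPM in vehicle libraries (log2 fold change -0.39 ± 0.07). TPX2, a spindle assembly factor, had 243 and 246 CPM in peony high libraries, against 317, 304 and 307 CPM in vehicle libraries (log2 fold change -0.34 ± 0.05). The lower doses were lower than vehicle as well, in 10 of 24 at the medium and 12 at the low dose. Of all genes, 1.52% fell at the medium and 3.89% at the low dose. PLK1 had 141 and 143 CPM at the low and 142 and 143 CPM at the medium dose. Between the high and the low dose 0 of the 24 were called by edgeR, with 3 lower at an unadjusted p under 0.05, and 0 by DESeq2. Genes of the S phase fell in 8 of 24 against vehicle and in 3 without peony high replicate 1, where 16.1% and 5.53% of all genes fell. TK1, thymidine kinase, had 51.7 and 53.8 CPM in peony high libraries, against 64.6, 66.2 and 65.3 CPM in vehicle libraries (log2 fold change -0.31 ± 0.07). Clock genes fell in 8 of 15 and in 6 without peony high replicate 1. BHLHE41, a repressor within the clock, had 29.9 and 30.8 CPM in peony high libraries, against 48.4, 46.1 and 43.6 CPM in vehicle libraries (log2 fold change -0.60 ± 0.06), and BMAL1, its central activator, had 5.98 and 6.00 CPM in peony high libraries, against 8.61, 9.21 and 8.22 CPM in vehicle libraries (log2 fold change -0.53 ± 0.11). Genes of nucleolar ribosome biogenesis fell in 8 of 20, but in 2 without peony high replicate 1.

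Collagen and matrix genes fell in 12 of 24 and rose in 1, LUM, and in 6 and 1 without peony high replicate 1. LOX, which cross-links collagen, had 160.3 and 161 CPM in peony high libraries, against 205, 213 and 209 CPM in vehicle libraries (log2 fold change -0.38 ± 0.04). COL4A1, of basement membrane, had 338 and 326 CPM in peony high libraries, against 412, 411 and 431 CPM in vehicle libraries (log2 fold change -0.33 ± 0.05). Matrix proteases and their inhibitors fell in 6 of 14 and rose in 2, and in 3 and 2 without peony high replicate 1. HAS3, a hyaluronan synthase, had 83.4 and 92.97 CPM in peony high libraries, against 49.8, 51.2 and 49.9 CPM in vehicle libraries (log2 fold change 0.81 ± 0.08, adjusted p = 1.5e-11, edgeR). Transporters of amino acids and glucose fell in 6 of 10, and in 5 without peony high replicate 1. Among early response genes and ERK feedback regulators 2 of 19 rose and 7 fell, and 2 rose and 5 fell without peony high replicate 1. EGR1, an immediate early transcription factor, was among the rises, with 30.8 and 33.95 CPM in peony high libraries, against 18.9, 20.4 and 18.4 CPM in vehicle libraries (log2 fold change 0.75 ± 0.18).

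The remaining lists are read against the 8.36% of all genes that rose and the 16.1% that fell with all libraries, and the 4.77% and 5.53% without peony high replicate 1. Cholesterol synthesis had 1 of 23 members higher and 4 lower, and 1 lower without that library. Lysosomal genes had 4 of 25 members lower, and 1 without that library. Cytosolic ribosomal proteins had 2 of 26 members lower, and none called by edgeR without that library, where 1 was lower at an unadjusted p under 0.05. With all libraries the shares of these 3 lists lay near or below those of all genes. Targets of p53 had 3 of 17 members higher and 2 lower, and 2 and 1 without that library. Fatty acid synthesis had 1 of 14 members higher and 4 lower, and 1 and 1 without that library. Hyaluronan and proteoglycan genes had 2 of 11 members higher and 3 lower, and 1 and 1 without that library. Glucocorticoid targets had 3 of 10 members higher and 3 lower, and 2 and 2 without that library. Prostaglandin synthesis had 2 of 5 members higher and 2 lower, and 1 and 1 without that library. Histones had 3 of 7 members higher, and 2 without that library. The 13 genes of the mitochondrial genome and the 21 nuclear genes of the respiratory chain had 0 calls by edgeR and by DESeq2, and 0 of them had an unadjusted p under 0.05. Mitochondrial transcripts took 4.82% and 5.77% of counts in peony high libraries and 5.42% to 5.90% in vehicle libraries.

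Markers of cell type were read as a check of the label. Of 15 astroglial markers, 6 (GFAP, S100B, AQP4, ALDH1L1, FABP7 and NDRG2) were under 1 CPM in all 5 libraries, whereas VIM, CD44, SOX9 and GJA1 were expressed. Of the 8 with at least 5 CPM, 1 rose and 5 fell, and 4 fell without peony high replicate 1. The tested astroglial markers summed to 7186 to 7969.8 CPM in peony high and 9035 to 9436 CPM in vehicle libraries, most of it VIM, the filament vimentin, with 4357 and 5029 CPM in peony high libraries, against 6157, 5850.4 and 6042 CPM in vehicle libraries. In such bulk samples fewer cells of a type and less RNA per cell cannot be told apart. Of 13 markers of other neural cells 7 were under 1 CPM, and the tested ones summed to 192 CPM in each peony high library and 176 to 177 CPM in vehicle libraries. Of 8 epithelial markers 5 were under 1 CPM, and the tested ones summed to 200.5 to 211 CPM in peony high and 242 to 251 CPM in vehicle libraries. Of 11 blood and endothelial markers 7 were under 1 CPM, and the tested ones summed to 179.7 to 200.4 CPM in peony high and 199 to 212 CPM in vehicle libraries. The 9 mesenchymal markers, all tested, summed to 5805 to 6163 CPM in peony high and 6892 to 6972 CPM in vehicle libraries. The part of these markers in the results above was not tested.

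Against the mean of the other 5 extracts at 500 µg/mL, a comparison with no vehicle library, 630 genes were higher in peony high (5.63% of 11196) and 1183 lower (10.6%). Only angelica shares the set number of peony, so here too the extract cannot be fully told apart from the set. With only genes of at least 5 CPM in the fit, 860 were higher (7.68%) and 791 lower (7.07%), so that 52.1% of the calls were higher instead of 34.7%, and without peony high replicate 1 only 248 were higher (2.22%) and 256 lower (2.29%). Leaving out replicate 2 instead, 340 were higher and 1747 lower, with 16.3% rises. Hypoxia and glycolysis genes were lower in 24 of 26 members and higher in 1, and in 19 and 1 without peony high replicate 1. BNIP3 averaged 54.5 CPM in peony high and 88.9 to 144 CPM in the other 5 extract groups (log2 fold change -1.07 ± 0.05). ID3 was lower at a log2 fold change of -1.55 ± 0.11, ID2 at -1.33 ± 0.09 and ANKRD1 at -1.30 ± 0.16, and TGF-beta and BMP targets were lower in 9 of 15. VIPR1 averaged 10.9 CPM in peony high and at most 4.93 CPM in another extract group (log2 fold change 1.59 ± 0.11). Over the libraries of this comparison VIPR1 averaged under 5 CPM, so it is outside the gene counts given here. NPTX1 was higher at a log2 fold change of 1.36 ± 0.08, and COLEC12, a scavenger receptor, at 0.96 ± 0.08. AhR targets were higher in 4 of 5.

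Other genes varied widely among the extracts. NQO1 averaged 237 CPM in peony high and 136 to 254 CPM in the other groups (log2 fold change 0.44 ± 0.04). TXNIP averaged 29.2 CPM in peony high, against 206 CPM in poria, 149.9 CPM in ginseng, 59.2 CPM in angelica, 5.74 CPM in licorice and 5.46 CPM in atractylodes. HMOX1 averaged 63.04 CPM in peony high and 74.8 to 148 CPM in the other groups (log2 fold change -0.66 ± 0.07). NF-kB genes were lower in peony in 12 of 15 members, and in 9 without peony high replicate 1. ER stress genes were lower in 6 of 20, but in 0 without peony high replicate 1 by edgeR, where 4 were lower at an unadjusted p under 0.05.

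Across the peony doses the number of calls against the same vehicle libraries did not climb steadily, with 401 genes higher and 435 lower at 20 µg/mL, 233 higher and 170 lower at 100 µg/mL, and the counts given above at 500 µg/mL. IGFBP1 had 22.1 and 21.1 CPM at 20, 31.3 and 28.3 CPM at 100 and 63.2 and 60.1 CPM at 500 µg/mL. THBD had 8.84 and 8.09 CPM at 20, 10.1 and 9.51 CPM at 100 and 23.6 and 23.9 CPM at 500 µg/mL. For both, the libraries at 20 µg/mL lay close to the vehicle libraries. SAMD11 was lower from 100 µg/mL on, with 95.4 and 95.4 CPM at 20, 56.5 and 54.9 CPM at 100 and 35.7 and 33.8 CPM at 500 µg/mL. CYP1B1 stepped upward, with 131 and 131 CPM at 20, 148 and 146 CPM at 100 and 220.1 and 235 CPM at 500 µg/mL. The 4 largest rises of the high over the low dose by the rule used were NPTX1, TXNIP, IGFBP1 and THBD, at log2 fold changes of 1.88 ± 0.12, 1.65 ± 0.11, 1.51 ± 0.10 and 1.49 ± 0.11. The 4 largest falls were ID3, SAMD11, ID2 and MT1E, at -1.54 ± 0.13, -1.46 ± 0.08, -1.39 ± 0.11 and -1.32 ± 0.16. Between the high and the low dose, 263 genes were higher and 526 lower (2.34% and 4.68% of 11249), or 380 and 388 (3.38% and 3.45%) with only genes of at least 5 CPM in the fit, which makes rises 49.5% of calls instead of 33.3%. Leaving out peony high replicate 1 gave 164 higher (1.46%) and 179 lower (1.59%), and leaving out peony high replicate 2 gave 239 higher and 1093 lower.

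**Figure D5:**
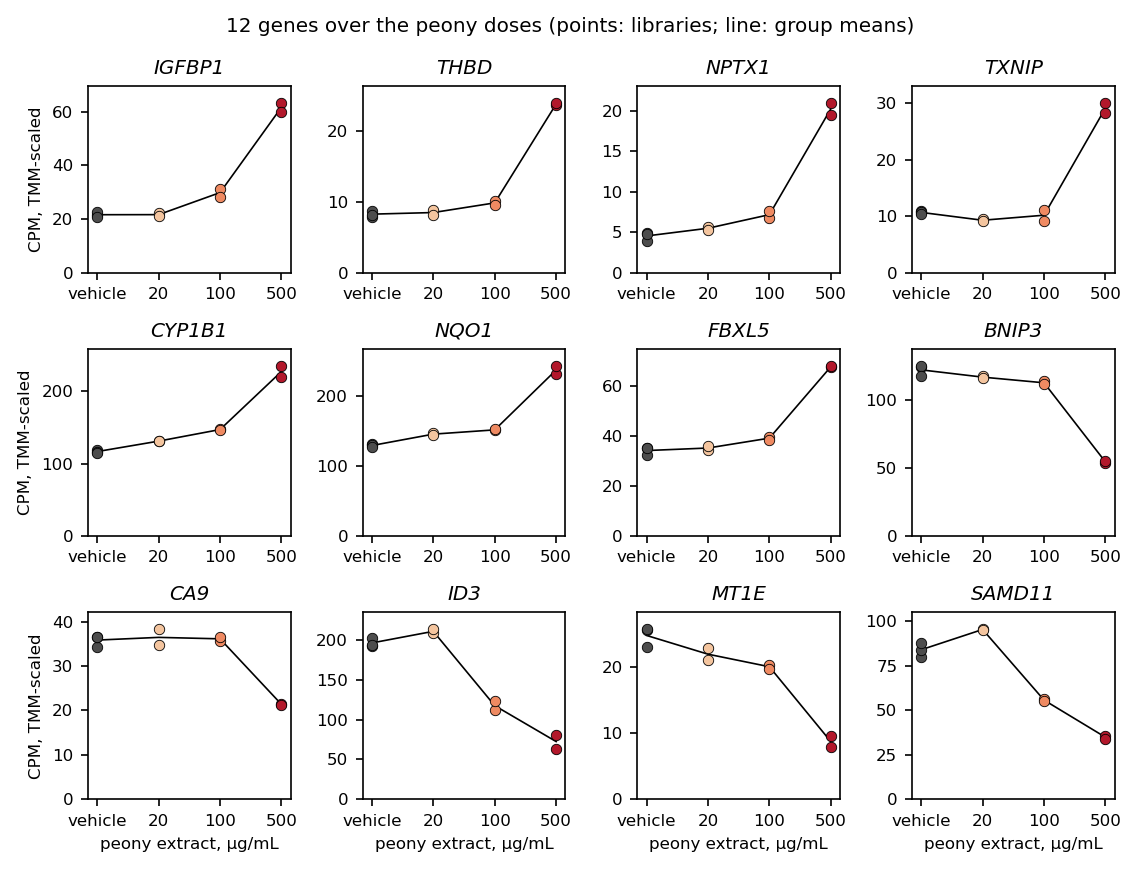
TMM-scaled CPM (y axis) of 12 genes in vehicle and at 20, 100 and 500 µg/mL of peony extract (x axis, evenly spaced), with a point for each library and a line through the group means. IGFBP1, THBD, NPTX1, TXNIP and BNIP3 change mainly at 500 µg/mL, whereas ID3 and SAMD11 are already lower at 100 µg/mL.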

How the data were processed

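RNA of SW1783 cells was read as 100 bp paired ends, per the labels' protocols. The authors deposited expected counts per gene, not normalised between samples. The submitters' processing notes name RSEM 1.3.3, STAR 2.7.3a, Trim Galore 0.6.5, FastQC 0.11.9 and GRCh38, and neither they nor the labels state whether counting used strand. Expected counts were rounded (9.48% of values were not whole at a tolerance of 1e-06). Of the table's columns, 219 were not used. Gene positions are from GENCODE 29.

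In R 4.3.3, 17919 genes passed the low-count filter of edgeR 4.0.16 (filterByExpr with a minimum count of 10 and a minimum total of 15). They were scaled by TMM and fitted by robust quasi-likelihood over all 60 libraries in 22 groups. P-values are two-sided, Benjamini-Hochberg adjusted over all genes tested. A gene was called at an adjusted p under 0.05 and a mean of at least 5 CPM. The SE is the log2 fold change divided by the square root of F. In data simulated for peony high against vehicle (17192 genes), 37, 46, 50 and 50 of 50 genes changed by 1.25, 1.5, 2 and 4-fold were recovered. Of 11003 unchanged genes, 2 were called. All simulated libraries were drawn from vehicle proportions, without stray counts or a difference between sets. The simulation therefore gives no rate of false calls for data with the stray counts of peony high replicate 1.

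The libraries, the 38 gene lists and the rule for named genes were chosen with earlier results of these data known, and 1 list (selenoproteins) was added after values were seen. The rule took the 12 largest rises and falls with both peony libraries beyond all vehicle libraries, the 4 smallest p of lists with at least 1 in 3 members called, the smallest p of other lists, the 4 largest in each direction in the other high-dose comparisons, and 7 genes given whatever their values (TXNIP, ARRDC4, HMOX1, HSPA1A, DNAJB1, MT2A and CYP1B1). Outside it, picked after values were seen, were ADM, AHR, AJUBA, ALDH3A1, CA9, CCN1, CXCL8, CYP1A1, DDIT4, DIO2, EGR1, GAPDH, GCLC, GCLM, GREM1, GPX1, ID1, LDHA, MTF1, PGK1, SELENOW, SLC39A10, SLC39A14, TFRC, TXNRD1 and VEGFA. Alternatives were DESeq2 1.42.0, scaling by RLE, no minimum CPM, no low-count filter, the replicate number as a block, the compared groups alone, leaving out each peony and vehicle library in turn and a fit of genes of at least 5 CPM. A gene that the list counts include is not reported here by name and not drawn.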

Additional observations from a re-analysis of the deposited data

How the results depend on the processing

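Against vehicle, 935 genes were higher and 1805 lower in peony high cells. The rises numbered 1848 with no minimum CPM, 623 with no filter on low counts and 1418 with only genes of at least 5 CPM in the fit. Leaving out each library in turn gave 534 to 778 rises and 619 to 2262 falls. The lowest counts came without peony high replicate 1 (534 and 619), and without peony high replicate 2 there were 556 rises. Against peony low, rises numbered 498 with no minimum CPM, and leaving out libraries gave 128 to 239 rises and 179 to 1093 falls. There, rises were 164 without peony high replicate 1, 128 without peony low replicate 1 and 143 without peony low replicate 2, and falls were 179, 234 and 242 in the same order and 1093 without peony high replicate 2. Against the other extracts, rises numbered 1529 with no minimum CPM and falls 1800 with no filter on low counts, and leaving out each peony high library (the 14 libraries of other extracts were kept) gave 248 to 340 rises and 256 to 1747 falls. For the medium dose against vehicle, the compared groups alone gave 666 rises and 1045 falls, the replicate block 271 falls and DESeq2 279 falls, and leaving out libraries gave 38 to 143 rises and 32 to 127 falls. For the low dose the compared groups alone gave 980 rises and 1419 falls, and leaving out libraries gave 83 to 279 and 79 to 328. The cause of these moves was not tested. No named gene that was called in the main fit or in the alternative changed direction there. For named genes called in neither fit, such as HSPA1A with all libraries, a change of sign was not counted. Among all calls, 2 of the 935 rises had the opposite sign without peony high replicate 1. The balance of rises and falls against vehicle did turn, to 1418 rises and 1259 falls with only genes of at least 5 CPM in the fit. Of the 129 named genes, 129 kept their side of the threshold with RLE size factors, 128 with DESeq2, 128 with the replicate block, 125 with only genes of at least 5 CPM, 111 without peony high replicate 1 and 117 without peony high replicate 2. With the replicate block, 983 genes were higher and 1881 lower in peony high than in vehicle. Deviations of same-numbered libraries correlated at -0.07 and 0.05 between peony high and vehicle and at -0.03 between peony high and peony low. For peony high these deviations are only the difference between replicates 1 and 2, so they cannot decide whether the numbers pair the libraries. The main fit used no pairing. Only 2 peony high libraries were available, and 1 of them, replicate 1, stands apart by its number of genes with a count.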
